A study of Homo sapiens with 3 samples.

Results

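The 10 genes of epithelial acute-phase and antimicrobial defence described here were measured on 3 arrays of a human colon carcinoma line. They were taken by name, under the current symbol or an older alias, from the array annotation, and all 10 members had a probe (12 probes in all, among 17559 genes with a probe). NOS2 was matched through its older symbol NOS2A. A probe annotated SAG, which is an alias of DMBT1 but also the current symbol of another gene, was not counted as DMBT1. The members were LCN2, SAA1, SAA2, C3, CFB, PIGR, DMBT1, DUOX2, DUOXA2 and NOS2.

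The cells were LS174T-tetON-NICD, made from LS174T, a mucus-producing colon carcinoma line. Doxycycline induces in them the intracellular domain of Notch (NICD), the part of the receptor that enters the nucleus. All cultures, the controls included, carried this construct, and the labels do not say whether the line is 1 clone. Cultures received tumour necrosis factor alpha (TNF-a, here TNF) at 50 ng/ml, doxycycline (Dox) at 100 ng/ml, or both (TNF+Dox), each for 24 h. Each treated culture was labelled with Cy3 and hybridised against an untreated control in Cy5 on 1 array of 2 colours. There was 1 culture and 1 array per treatment, no dye swap and no doxycycline-treated culture without the construct. Differences therefore have no replicate check and no p-value is given, and effects of NICD and of doxycycline itself cannot be told apart.

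Mucosal epithelium secretes proteins that starve, tag or kill bacteria, and many of their genes are raised by inflammatory cytokines through the transcription factor NF-kB. LCN2 (lipocalin-2) binds bacterial siderophores and withholds iron, and the serum amyloid A proteins SAA1 and SAA2 are acute-phase reactants. C3 is the central protein of complement and CFB (factor B) drives its alternative pathway. PIGR (polymeric immunoglobulin receptor) carries IgA across the epithelium, and DMBT1 is a secreted scavenger receptor that binds bacteria. DUOX2 is an epithelial oxidase that makes hydrogen peroxide, DUOXA2 is the maturation factor that brings it to the cell surface, and NOS2 makes nitric oxide.

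Promoter sequence was found for 6 of the 10 members in the RefSeq table of build GRCh38.p14. Shown first are the 250 bases before the start of LCN2 (chr9:128149203-128149452, plus strand) and of CFB (chr6:31945845-31946094, plus strand), the members with the highest ratios under TNF. The third sequence is the whole interval of 153 bases that separates the divergent genes DUOX2 and DUOXA2 (chr15:45114173-45114325, plus strand), which thus share an upstream region. Capitals mark the matches named after the sequences.
LCN2: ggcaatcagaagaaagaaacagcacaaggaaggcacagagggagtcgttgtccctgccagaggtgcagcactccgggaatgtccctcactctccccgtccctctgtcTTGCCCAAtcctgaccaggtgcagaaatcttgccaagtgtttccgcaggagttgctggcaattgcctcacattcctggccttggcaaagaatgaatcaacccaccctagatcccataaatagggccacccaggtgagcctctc
CFB: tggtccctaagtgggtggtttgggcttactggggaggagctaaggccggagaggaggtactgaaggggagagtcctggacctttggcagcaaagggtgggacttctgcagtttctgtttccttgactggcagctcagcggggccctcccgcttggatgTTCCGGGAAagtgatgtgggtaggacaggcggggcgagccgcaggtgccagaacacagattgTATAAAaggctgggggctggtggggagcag
DUOX2-DUOXA2: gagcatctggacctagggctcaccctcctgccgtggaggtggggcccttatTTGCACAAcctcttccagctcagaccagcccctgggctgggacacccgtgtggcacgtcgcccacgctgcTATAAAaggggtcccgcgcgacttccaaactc

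The letters searched on both strands, over 250 bases before to 50 after each start, were a kappaB motif for NF-kB (3 G, 2 free bases, 2 T, 1 free base and 2 C), TTNNGNAA for C/EBP, TTCNNNGAA for STAT factors, GTGGGAA for RBPJ (the DNA-binding partner of NICD) and TATAAA for a TATA box. LCN2 held the C/EBP letters at position -143 and no others, where -1 is the last base before the start. The letters gggaatgtcc in the LCN2 sequence differ from the kappaB motif at its second T and were not counted. CFB held the STAT letters at -92 and the TATA letters at -30. The DUOX2-DUOXA2 interval held 1 C/EBP match and 1 TATA match, and the TATA letters began at -32 of DUOXA2. DMBT1 held 1 C/EBP and 3 TATA matches, while the PIGR window held none of the letters. Among 35116 promoters of the same length, 5.68% held the NF-kB letters, 36.8% the C/EBP letters, 7.66% the STAT letters, 6.25% the RBPJ letters and 11.5% the TATA letters. These matches are descriptions of sequence, and a window without a match says only that these letters were not in it.

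Signals below are spot intensities less the mean of the blank spots of the same channel, and ratios are log2 of treated over control after normalization. Of the 10 members, 8 entered the gene table of 14529 genes, which required a channel above the 95th percentile of the blanks on every array. DMBT1 and NOS2 did not. Because an offset of 50 was added to both channels, ratios of dim probes are pulled towards 0, and C3, SAA1, SAA2, DMBT1, DUOXA2 and NOS2 all had control signals under 11. On the TNF array the treated channel differed from that of the others. Its median signal over all probes was 18.6, against 55.7 (Dox array) and 61.7 (TNF+Dox array). Treated signals are therefore not on 1 scale between arrays. Of 3466 probes with a control signal above 500 on the TNF array, 531 (15.3%) were at least 4-fold lower and 1 was at least 4-fold higher. On the Dox array 4 of 3058 such probes were at least 4-fold lower, and on the TNF+Dox array 17 of 3034. The log2 ratios of different probes of 1 gene varied by an SD of 0.74 (TNF array), 0.24 (Dox array) and 0.30 (TNF+Dox array) over 1747 genes, and these serve as the yardstick of spread. Such an SD describes probes on the same array and does not measure variation between cultures or between arrays. Of 12 colon epithelium markers with a probe, all were above background in a control channel. With TNF 4 were at least 2-fold lower and 1 higher, where 12.3% and 1.80% of all genes were. Of 10 leukocyte markers with a probe 5 were above background in a control channel, but not PTPRC, CD3E, MS4A1, S100A12 or ITGAM. Summed over the 10 leukocyte markers, control signals were 525, 447 and 476 (TNF, Dox and TNF+Dox arrays) and treated signals 528, 751 and 1525. The last sum held LYZ at 783 and CD68 at 554, with MPO, ELANE and CSF3R at 6.65, 12.4 and 120. LYZ is also on the antimicrobial list below. The treated sums of the colon epithelium markers were 73790, 95153 and 86633. Of 10 hepatocyte markers with a probe 8 were above background in a control channel, but not ALB or FGB. Of 6 fibroblast markers 4 were, but not COL1A1 or COL1A2. The part of these markers in the results was not tested.

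**Figure D1:**
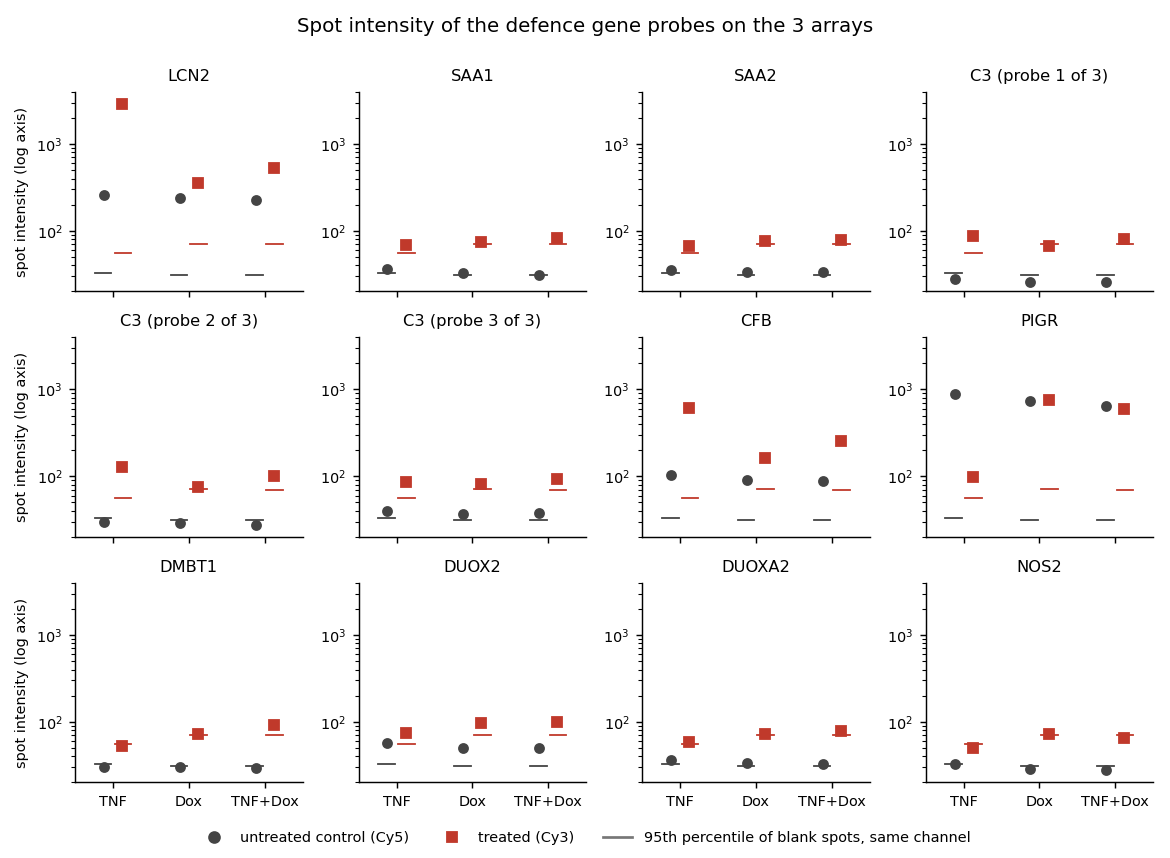
Spot intensity without background subtraction (log axis) of the 12 probes on the TNF, Dox and TNF+Dox arrays, with untreated control as dark grey circles, treated cells as red squares and the 95th percentile of the blank spots as short lines. LCN2 lies far above the blanks in both channels of all 3 arrays, PIGR does so except for its TNF-treated spot, and SAA1, SAA2, DUOXA2 and NOS2 lie close to the blanks throughout.

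LCN2 (chr9:128149453-128153453; gene positions are from RefSeq, GRCh38.p14, and the place of a probe within its gene was not used here) was high with TNF and close to control with both treatments. Its treated signal was 2799 on the TNF array, 286 on the Dox array and 462 on the TNF+Dox array. The control signals beside them were 226, 211 and 198. The control values were alike on the 3 arrays, and the TNF-treated value stood alone. The log2 ratio was 2.87 with TNF (7.32-fold), -0.31 with Dox and 0.33 with both (1.26-fold). LCN2 thus ranked 11 of 14529 genes with TNF and 2547 with both. Among 1428 other probes with a control signal within 1.25 times that of LCN2, 0 reached its ratio on the TNF array, and 338 of 1428 (23.7%) reached it on the TNF+Dox array. The median ratio of its 22 neighbouring spots was -0.20 on the TNF array (highest 1.13) and 0.31 on the TNF+Dox array. The high value on the TNF array was thus not shared by the spots around it.

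The difference between the TNF+Dox and the TNF array was -2.54 for LCN2 (5.82-fold lower with both), which is more than the spread between probes for this difference (0.80). It ranked 8 of 14529 from the lowest. On top of Dox, in a reading that does not use the TNF array, TNF added 0.64 (1.56-fold) to LCN2. The TNF+Dox ratio minus the sum of the single treatments was -2.23 on the log2 scale for LCN2. In bulk RNA, fewer cells making a transcript and less of it per cell cannot be told apart.

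CFB (chr6:31946095-31952084) followed the same order. Its treated signal was 562 with TNF, 95.5 with Dox and 189 with both, against control signals of 73.8, 62.9 and 59.4. The log2 ratios were 2.22 (4.67-fold), -0.09 and 0.54 (1.45-fold). Only the TNF-treated culture was more than 2-fold from its control. Of 1479 probes with a similar control signal, 3 reached the CFB ratio on the TNF array, while on the TNF+Dox array 193 of 1522 (12.7%) did. CFB was 3.22-fold lower on the TNF+Dox than on the TNF array (-1.68 on the log2 scale) and ranked 71 from the lowest. TNF on top of Dox gave 0.62 for CFB (1.54-fold), close to the 0.64 of LCN2.

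C3 (chr19:6677704-6720650) had 3 probes, and all gave their highest treated signal on the TNF array. The brightest in control cells, H200008806, read 35.1 with TNF, 16.04 with Dox and 28.2 with both, against 10.3, 8.51 and 9.87 in the controls. Its log2 ratios were 0.60 (1.52-fold), -0.00 and 0.12. Of 1414 probes with a similar control signal, 4 reached its TNF ratio. The control of the other C3 probes was not above background on any array, so only limits hold for them. DHsGV10002548, with treated signals of 77.4, 9.26 and 36.3, was at least 2.65-fold higher with TNF and at least 1.38-fold higher with both. AHsV10000575, with 36.1, 1.44 and 16.4, was at least 1.69-fold higher with TNF and at least 1.14-fold higher with both. This last probe was not above background in either channel of the Dox array and was left out of the gene value.

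Averaged over the 2 probes kept, C3 stood at 1.01 with TNF (2.02-fold, SD 0.58 over 2 probes), 0.05 with Dox and 0.33 with both. DHsGV10002548 was kept only through its treated channel, and with the brightest probe alone the TNF value was 1.52-fold, under 2-fold. The TNF+Dox minus TNF difference of C3 was -0.69, which is within the spread between probes for this difference (0.80), although the sign was the same for all 3 probes (-0.56, -0.89 and -0.49).

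**Figure D2:**
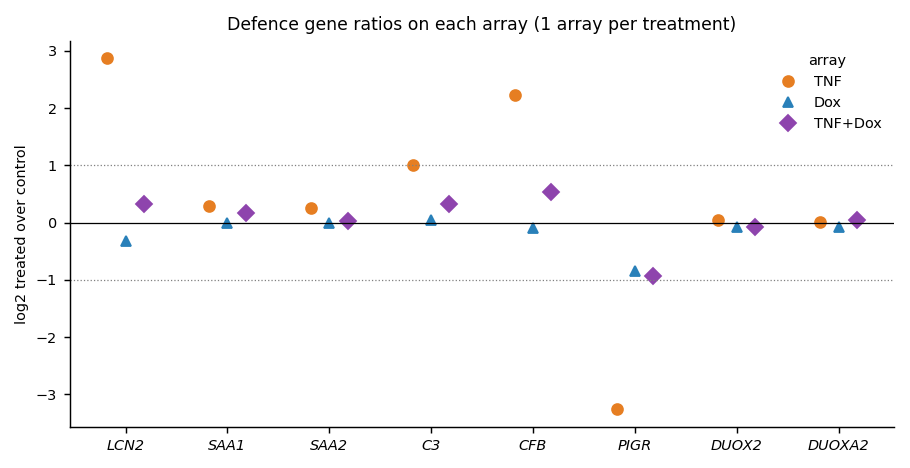
Log2 ratio of treated over control for the 8 members in the gene table on each array, with 1 point per array and dotted lines at 2-fold. LCN2 and CFB stand at 2.87 and 2.22 with TNF and at 0.33 and 0.54 with TNF+Dox, while PIGR lies below 0 on all 3 arrays.

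SAA1 (chr11:18266264-18269967) and SAA2 (chr11:18238236-18248668) were near the blank spots in all cultures. The SAA1 probe read 16.4 with TNF, 8.61 with Dox and 17.9 with both, against 6.46, 4.31 and 2.91 in the controls, the last not above background. The SAA2 probe read 14.5, 10.2 and 13.6, against 6.03, 5.27 and 5.30. Before any scaling between arrays, the treated signals of the TNF and TNF+Dox cultures were thus alike for both genes and those of the Dox culture lower. The treated channel of the TNF array was dimmer as a whole, so these signals alone do not rank the cultures. The log2 ratios of SAA1 and SAA2 with TNF were 0.28 and 0.25. Under the local background around each spot SAA1 was at 0.018 and SAA2 at -0.05. In the authors' deposited log2 ratios, which carry no offset, they stood at 1.43 and 1.35. With both treatments SAA1 stood at 0.17 and SAA2 at 0.03, at 0.00051 and 0.075 under the local background and at 1.72 and 0.46 in the deposited ratios. SAA2 turned to -0.07 under median centring. The TNF+Dox minus TNF differences of -0.12 and -0.22 are within the spread between probes, and in the deposited ratios they were 0.29 and -0.90. The 2 genes are close paralogs that lie 17595 bases apart on chromosome 11, and cross-hybridisation between them was not tested, since probe sequences were not used here.

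PIGR (chr1:206928522-206946466) was the brightest member in control cells, with control signals of 859, 708 and 612 on the TNF, Dox and TNF+Dox arrays. The treated signals were 46.3, 694 and 536. Before normalization the TNF-treated signal was therefore far below its control, while the other treated signals lay near theirs. The log2 ratios were -3.26 (9.57-fold lower), -0.85 (1.80-fold lower) and -0.93 (1.90-fold lower). PIGR was thus lower than control on all 3 arrays, and the sign was the same under all 7 alternatives tried for each array. With 1 probe for PIGR, the brightest probe and no filter could only return the reported values. Median centring moved the ratio to -0.37 with Dox and to -0.52 with both. On the TNF array, 60 of 861 probes with a similar control signal (6.97%) were as low or lower, against 17 of 867 (1.96%) on the Dox array and 65 of 937 (6.94%) on the TNF+Dox array. The low TNF value thus falls among many bright probes that read low on that array, whose part in it was not tested. On top of Dox, where the TNF array is not used, the TNF difference of PIGR was -0.08.

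DMBT1 (chr10:122560754-122643736) was above background only in the treated channels of the Dox and TNF+Dox arrays. It read 1.35 with TNF, 6.73 with Dox and 26.3 with both, against control signals of 1.00, 1.87 and 1.17 that were not above background on any array. The value with both treatments was the highest of the 3 and the TNF value was not above background. DMBT1 was at least 1.25-fold higher with both treatments, and no fold can be given with TNF. With Dox the limit was 1.01-fold, and the log2 ratio of 0.03 lay within the range of the blank spots (-0.14 to 0.08). No change can therefore be read with Dox. The treated channel was dimmer on the TNF array as a whole (median 18.6, against 55.7 with Dox and 61.7 with both). Its part in the missing TNF signal of DMBT1 was not tested.

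DUOX2 (chr15:45092650-45114172) and its partner DUOXA2 (chr15:45114326-45118421) showed little change. DUOX2 read 22.3 with TNF, 32.0 with Dox and 36.1 with both, against 27.4, 21.6 and 22.6 in the controls, and its log2 ratios were 0.05, -0.08 and -0.08. DUOXA2 read 6.67, 7.43 and 13.9, against 7.39, 6.02 and 4.72, with ratios of 0.02, -0.08 and 0.05. All 6 ratios lay within the range of the blank spots of their array (for TNF -0.12 to 0.12, for Dox -0.14 to 0.08 and for TNF+Dox -0.14 to 0.09). The DUOXA2 signal with both treatments was the highest of the 3, and in the authors' deposited log2 ratios, which carry no offset, DUOXA2 stood at 0.66 there and at -0.06 with TNF. NOS2 (chr17:27756766-27800529) was at the blank level nearly throughout, with treated signals of -0.88, 6.03 and 1.16 and control signals of 3.002, 0.69 and -0.06. Only its Dox-treated spot was above background, and no difference was detectable at these signals.

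Set against the whole table, 3 of the 8 members measured were at least 2-fold higher with TNF (LCN2, CFB and C3), where 1.80% of all genes were. C3 passed only narrowly. The count was 2 under median centring, the local background, the brightest probe and no filter (C3 at 0.87, 0.55, 0.60 and 0.97). It was 5 in the authors' deposited log2 ratios, which add SAA1 and SAA2. In those ratios 1896 of 13707 genes were at least 2-fold higher. With TNF 1 member, PIGR, was at least 2-fold lower, where 12.3% of all genes were. With Dox none of the 8 passed 2-fold (1.18% of all genes higher and 0.406% lower). With both treatments none did either (3.17% higher and 2.13% lower). In the authors' deposited log2 ratios SAA1 (1.72) and PIGR (-1.09) passed it with both, beside 1164 genes higher and 785 lower of 14378. Between the TNF+Dox and the TNF array 2 members were at least 2-fold lower, LCN2 and CFB, against 3.29% of all genes, and PIGR was higher, against 14.0%. The count of lower members was 3 under offset 16, the deposited ratios and the Cy3 channel alone (C3 at -1.10, -1.24 and -1.10). It stayed at 2 under the other alternatives. Genes lower under the first 3 settings numbered 643 of 14529, 2054 of 13628 and 1328 of 14529. The median over the 8 members was 0.27 with TNF, -0.08 with Dox and 0.11 with both, beside medians of all genes of -0.01, 0.01 and 0.00. For TNF+Dox minus TNF it was -0.18 beside 0.03. TNF on top of Dox moved no member by 2-fold (1.18% of all genes higher and 0.909% lower), with a member median of 0.16 beside -0.00. In the authors' deposited log2 ratios 3 members passed it upwards, SAA1 at 1.58, DUOXA2 at 1.22 and CFB at 1.02. Of all genes 549 of 14280 did so there. Against the sum of the single treatments LCN2 and CFB were at least 2-fold below (5.11% of all genes) and PIGR above (14.0%). C3 was also below under offset 16 (-1.22) and in the deposited ratios (-1.29), where DUOXA2 (1.28) was also above. All comparisons with the TNF+Dox treatment share its 1 array, and all with the TNF treatment share the TNF array.

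**Figure D3:**
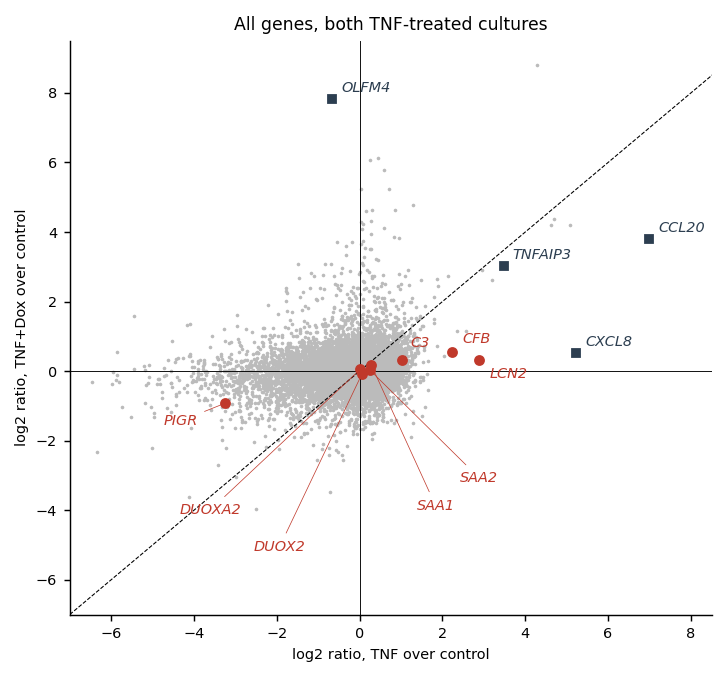
Log2 ratio of TNF over control (horizontal) and of TNF+Dox over control (vertical) for all 14529 genes (grey), with the defence genes in red circles, 4 other genes in dark squares for scale (OLFM4, a Notch target, was saturated on the TNF+Dox array) and a dashed line of equal ratios. LCN2, CFB and C3 lie right of the line near the horizontal axis, whereas TNFAIP3 lies close to the line.

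Known TNF targets give the scale of this pattern. TNFAIP3, a feedback inhibitor of NF-kB, stood at 3.48 with TNF and 3.01 with both. CXCL8, the gene of interleukin-8, stood at 5.22 and 0.51, and the chemokine gene CCL20 at 6.99 and 3.79. The TNF+Dox minus TNF values were thus -0.47 for TNFAIP3, -4.71 for CXCL8 and -3.20 for CCL20, beside -2.54 for LCN2 and -1.68 for CFB. With both treatments TNFAIP3 was thus near its TNF level while LCN2 and CFB were not.

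Likeness was measured as the Euclidean distance over the 3 log2 ratios among 13059 genes with both channels above background and unsaturated on every array. The gene nearest to LCN2 was CFB (0.72), followed by the interferon-induced genes OAS3 (0.85) and IFI6 (1.07), and no gene lay within 0.5. For CFB the nearest were OAS3 (0.24), NFE2L3 (0.67) and IFI6 (0.68). C3 was nearest to TRAF3, PSMA6 and TRIM21 (0.12 to 0.13), with 465 genes within 0.5. PIGR was nearest to ERGIC1 (0.12), PITX1 (0.16) and MAT2A (0.21), with 19 genes within 0.5. The patterns of SAA2 (ZDBF2, PGD and PLA2G4D nearest), DUOX2 (EIF4E1B, RUSC1-AS1 and CA14) and DUOXA2 (SLC24A4, TMEM196 and IL17REL) lay near 0 on every array, and 5961, 6122 and 6185 genes lay within 0.5 of them. Only 3 ratios enter each distance.

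**Figure D4:**
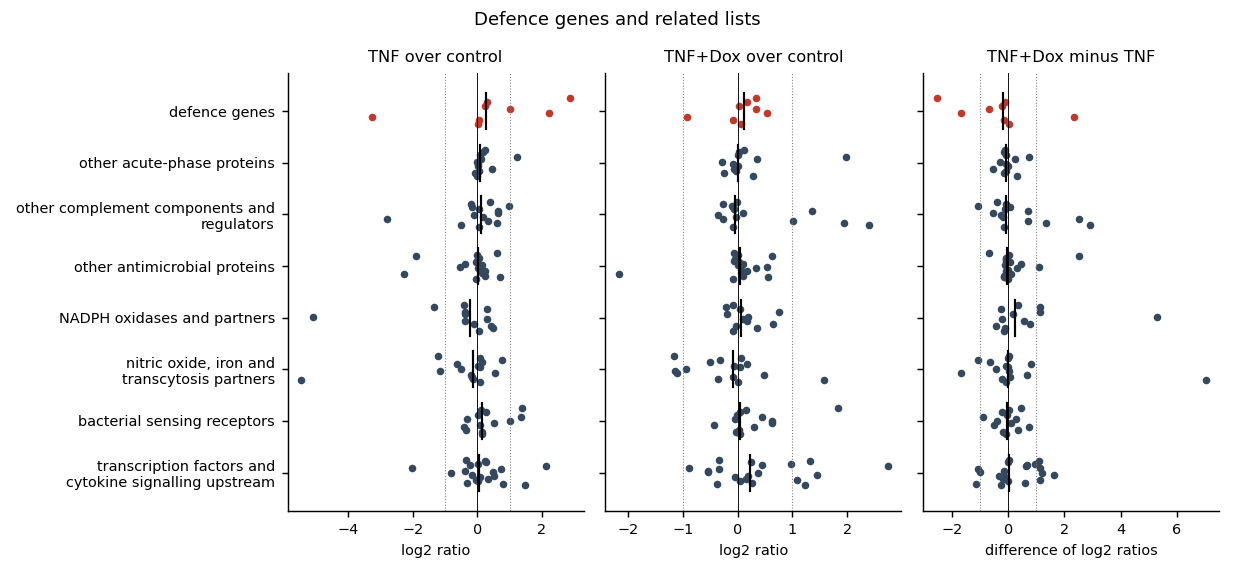
Log2 ratios with TNF (left) and with TNF+Dox (middle) and their difference (right) for the defence genes (red) and 7 related lists (dark), 1 point per gene, with a black bar at the list median and dotted lines at 2-fold. The defence genes at the right with TNF stand left of 0 in the difference, and CYBA and LGALS3 lie far right there.

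Among related genes, C2, a complement protease whose gene ends 422 bases before CFB on chromosome 6, stood at 0.97 with TNF, -0.12 with Dox and -0.10 with both. Its treated signals were 95.1, 37.1 and 44.6. C5 stood at 0.63, 0.10 and 0.10. The counts of this and the following lists stand beside these shares of all genes. With TNF 1.80% were at least 2-fold higher and 12.3% lower, and with both treatments 3.17% higher and 2.13% lower. No list count was tested against these shares. Of 14 other complement genes in the table, 0 passed 2-fold upwards with TNF and 1 downwards, CD46 at -2.81, a membrane regulator with a bright control (1378). With both treatments 4 were higher and 0 lower. These were CLU (2.40, and 2.39 with Dox), a secreted chaperone, and, named after their values were seen, the membrane regulators CD59 (1.94) and CD55 (1.01) and C4BPB (1.35). With TNF they stood at -0.52, 0.61, 0.32 and 0.64, and with Dox CD59, CD55 and C4BPB stood at 0.93, 0.48 and 0.39.

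Of 12 other acute-phase genes, 1 passed 2-fold upwards with TNF and 1 with both, in each case SERPINA1, the gene of alpha-1-antitrypsin. SERPINA1 read 127 with TNF, 61.5 with Dox and 451 with both, against 33.6, 26.3 and 30.03 in the controls. Its ratios were 1.24, 0.19 and 1.98, so that it was higher with both treatments than with TNF alone, unlike LCN2. SERPINA3 stood at 0.11 with TNF and 0.35 with both, FGA at -0.01 and -0.29, and APCS at 0.46 and -0.07. The list median was 0.07 with TNF and 0.01 with both.

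Of 18 other antimicrobial genes, 0 passed 2-fold upwards with TNF and 2 downwards, LYZ (lysozyme) at -1.90 and REG4 at -2.27. With both treatments LYZ stood at 0.63 and REG4 at -2.17. REG4, a lectin of secretory cells, was also lower with Dox (-1.38) and read 86.2, 332 and 164 in the treated channel against 590, 538 and 550 in the controls. DEFB1, a beta-defensin, read 31.2 with TNF, 8.33 with Dox and 7.45 with both, against 6.46, 3.99 and 5.13, with ratios of 0.61, -0.01 and -0.07. RNASE4 stood at -0.54 with TNF and 0.54 with both, and ITLN1 at 0.24 and 0.10.

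Of 13 receptors and adaptors of bacterial sensing, 3 passed 2-fold upwards with TNF and 1 with both. NOD2, a sensor of bacterial peptidoglycan, stood at 1.34 with TNF and 0.44 with both, with treated signals of 99.0 and 60.3. TLR3, a receptor for double-stranded RNA, stood at 1.37 and 1.83 (0.69 with Dox). The adaptor TICAM1, named after its value was seen, stood at 1.03 and 0.62. IRAK1 stood at 0.08 and -0.44 and TIRAP at -0.34 and 0.02.

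Transcription factors and cytokine receptors upstream of defence genes did not share 1 order. With TNF 2 of 20 passed 2-fold upwards and 1 downwards, and with both 5 upwards and 0 downwards. RELB, an NF-kB subunit, stood at 2.13 with TNF and 2.74 with both. IRF1 stood at -0.17 and 1.45, and STAT3 at -0.83 and 0.37. The C/EBP factor CEBPB stood at 0.74 with TNF and -0.34 with both, with treated signals of 2580 and 1263. IL22RA1, a subunit of the interleukin-22 receptor, stood at 0.79 and -0.37. Named after their values were seen, IL10RB stood at 1.47 with TNF, 1.15 with Dox and 1.22 with both, and CEBPA at -2.01 with TNF. With both, NFKB1 stood at 1.32 and IL6ST at 1.08. NFKBIZ, a cofactor of NF-kB known from mouse cells to be needed for LCN2 induction and named for that role, stood at -0.36 and -0.34 (2 probes).

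Partners of the oxidases, of nitric oxide and of iron handling completed the lists. Of 12 oxidase genes, 0 passed 2-fold upwards with TNF and 2 downwards, CYBA at -5.09 and NOX1 at -1.34 (2 probes with an SD of 2.32). With both treatments 0 passed 2-fold in either direction, and CYBA stood at 0.19 and NOX1 at -0.21. NOX3 stood at 0.29 and 0.04 and RAC1 at 0.41 and -0.03. Of 15 genes of nitric oxide, iron and transcytosis, 3 passed 2-fold downwards with TNF and 0 upwards. Among these was LGALS3 at -5.45 (1.29 with Dox and 1.58 with both). The others, named after their values were seen, were NOS3 (-1.21, -0.91 with Dox and -1.17 with both) and FTL (-1.16, -0.86 and -1.15). TFRC, the transferrin receptor, stood at 0.56 with TNF and -1.12 with both, ARG2 at 0.76 and -0.32, and GCH1 at -0.63 and 0.16. CYBA and LGALS3 had control signals of 2408 and 2340 and treated signals of 31.9 and 7.27 on the TNF array, as PIGR had bright control and dim treated values there.

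**Figure D5:**
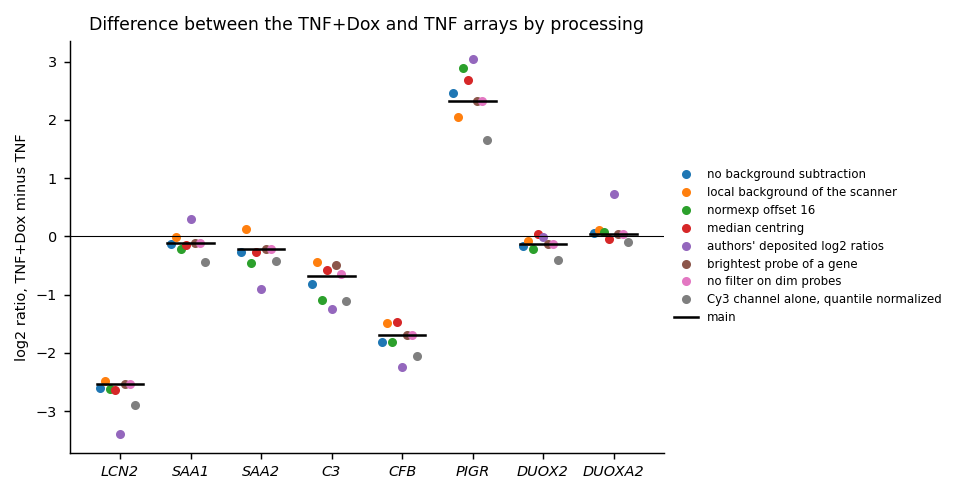
Difference of the log2 ratios, TNF+Dox minus TNF, for the 8 members in the table, with a black bar for the reported value and 1 coloured point per alternative processing. LCN2 runs from -3.39 to -2.48 and CFB from -2.25 to -1.48, while SAA1, SAA2, DUOX2 and DUOXA2 fall on both sides of 0.

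The sign of LCN2, CFB, C3 and PIGR was the same under each of the 8 alternatives tried for TNF+Dox minus TNF. LCN2, CFB and PIGR have 1 probe each, so the brightest probe and no filter could only return their reported values. LCN2 ran from -3.39 to -2.48, CFB from -2.25 to -1.48 and C3 from -1.24 to -0.43. PIGR ran from 1.66 to 3.04. These include the Cy3 channel compared alone between both arrays, with no use of the controls, which gave -2.90 for LCN2, -2.06 for CFB and 1.66 for PIGR while the median of all genes stood at -0.15.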

How the data were processed

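The members and lists were chosen with earlier results of these data known. Per the file headers, the authors' scanner files hold the median intensity of each spot in Cy5 and Cy3 on a linear scale, merged from scans at 3 gains. The values that the authors deposited for the series are log2 ratios with medians of 0. Recomputed as log2 of Cy3 over Cy5, each less the blank mean and centred on the median, all 18330, 19535 and 19605 of them (TNF, Dox and TNF+Dox) were matched within 0.001, which sets their direction as treated over control.

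From the intensities, the 5% trimmed mean of 2680 blank spots was taken as background, followed by normexp (offset 50) and loess within each array in limma 3.58.1 (R 4.3.3), with control spots at weight 0. A channel past the 95th percentile of the blanks counted as above background. A probe stayed if this held for 1 or both channels on each of the 3 arrays, and 3 probes marked bad were dropped. Of 24460 probes, 20236 had a symbol (17238 current, 2899 updated through RefSeq, 99 kept as given), and 16336 kept probes gave 14529 genes, probes of 1 gene being averaged. Where 1 channel was not above background, a limit is given against the lowest level above background. No member was saturated. Comparisons were each treatment over control and differences of log2 ratios, and genes past 2-fold were counted. With 1 array per treatment no test was possible, and precision is limited by the number of arrays.

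All members were named. From each other list the 2 highest and 2 lowest by TNF+Dox minus TNF among genes measured on both arrays were named, with any gene at least 4-fold from control on the TNF+Dox array, and the 3 genes nearest to each member measured on all arrays. The normalization was also run on simulated arrays with equal numbers of probes raised and lowered. These do not cover the TNF array, where 261 genes were at least 2-fold higher and 1790 lower. Alternatives were no background subtraction, the local background, offset 16, median centring, the authors' deposited log2 ratios, the brightest probe, no filter and the Cy3 channel alone. Tables were handled in Python 3.11.15 with pandas 2.3.3 and numpy 2.4.6, and figures drawn with matplotlib 3.10.9.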

Additional observations from a re-analysis of the deposited data

Results flagged for a closer look

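PIGR moved in opposite directions with doxycycline in the absence and presence of TNF. Dox over control was -0.85 on the log2 scale (-0.37 under median centring), and TNF+Dox minus TNF was 2.33. Both are further from 0 than the central 95% of the blank spots on any array (at most 0.14). The offset pulls ratios of dim spots towards 0, so this range is too narrow a yardstick for a bright probe. Among probes with a similar control signal, the central 95% ran from -0.79 to 0.83 on the Dox array, just short of PIGR. PIGR lay inside it on the TNF array (-3.73 to 0.86) and on the TNF+Dox array (-1.30 to 1.00). The difference between Dox over control and TNF+Dox minus TNF was not tested, as each rests on 1 array per treatment. The second value contains the treated signal of 46.3 on the TNF array, where 15.3% of probes with a bright control were at least 4-fold lower.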

How the results depend on the processing

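No paired analysis was possible because each treatment had 1 array, and for the same reason no array could be left out. A value was taken as moved when it changed by more than the SD between probes of 1 gene, and a count when it changed by more than 1.5 times. For TNF, LCN2 ran from 2.70 to 3.72, CFB from 1.87 to 3.02, C3 from 0.55 to 1.85 and PIGR from -4.13 to -2.91. With Dox, LCN2 turned from -0.31 to 0.03 under median centring, which moved the median of all genes to 0.14 there, to 0.13 with TNF+Dox and to 0.15 for TNF+Dox minus TNF. With TNF+Dox, LCN2 ran from 0.22 to 0.69. The authors' deposited log2 ratios, without offset or loess, moved the member median to 1.39 with TNF, to 0.54 with TNF+Dox and to 0.65 for TNF+Dox minus Dox. Genes past 2-fold then numbered 4959 (2051 in the main setting) with TNF, 717 (230) with Dox, 1949 (770) with TNF+Dox, 5475 (2515) for TNF+Dox minus TNF, 1037 (304) for TNF+Dox minus Dox and 6054 (2774) against the sum. Offset 16 gave 476 for TNF+Dox minus Dox, and median centring gave 559 with Dox. The split of higher and lower genes moved under median centring from 261 and 1790 to 761 and 1804 with TNF, from 171 and 59 to 540 and 19 with Dox, from 460 and 310 to 965 and 135 with TNF+Dox, and from 2032 and 742 to 2145 and 1442 against the sum. Under the deposited values it was 1896 and 3063 with TNF, 3421 and 2054 (main 2037 and 478) for TNF+Dox minus TNF and 3426 and 2628 against the sum, and under the local background 166 and 194 (main 172 and 132) for TNF+Dox minus Dox. The cause was not tested. The other 75 summary values stayed within these limits, and no member past 2-fold changed sign. Signals near the blanks limit SAA1, SAA2, DMBT1, DUOXA2 and NOS2, and control signals near the blanks limit the ratios of C3.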
